A study of Rattus norvegicus with 4 samples.

Results

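The microRNAs described here are the late-numbered names of 2 rat tables, that is every rat microRNA whose number is 3000 or above, other than 8 names placed within 500 kb of miR-127-3p. They were chosen by number and position and not by any measured value, and made up 105 of the 770 microRNA names listed in the 2 tables together. Extracellular vesicles (EVs), the small membrane particles that cells release, were profiled in 4 libraries of 3 groups. PC12, a rat pheochromocytoma line that the labels describe as a catecholamine cell, gave 1 EV library titled EVu and 1 titled EVd, and the labels do not explain the letters u and d. RMT1, a rat breast cancer line, gave 2 EV libraries, and its vesicles were collected by ultracentrifugation. No treatment, time or genotype is given for any group. All 4 libraries were made from vesicle RNA with the QIAzol, miRNeasy and QIAseq miRNA kits. The labels do not say whether the RMT1 pair came from separate cultures, so the spread behind each p-value is that of these samples alone and may be technical. Cell line and any preparation batch cannot be told apart.

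MicroRNAs are short RNAs cut from a hairpin precursor. Either arm of the hairpin can give the mature strand, named 5p or 3p, and the mature strand recognises target messenger RNAs mainly through its seed near the 5′ end. Numbers are given in the order in which microRNAs were named, so high numbers mark late annotations. Many of these came from deep sequencing, are known from rodents only and were recorded at low levels. Some microRNA loci carry a second annotated microRNA on the opposite strand of the same hairpin, and a pair of that kind is complementary in sequence.

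Of the 105 names, 68 were listed in the table of the PC12 libraries, which holds raw counts, and 102 in the table of all 4 libraries, which holds jointly scaled values from which counts were recovered. Both tables listed 65 of them. The library totals were 512244 counts for EVu and 386957 for EVd in the PC12 table. In the table of all 4 libraries they were 799224 and 716940 for the RMT1 pair, 436840 for EVu and 338233 for EVd. In that table a count of 0 allows a share of up to 0.000375%, 0.000418%, 0.000687% and 0.000887%, in the same order, for counting error only. The markers of the cell lines followed the labels: the summed level of 4 epithelial microRNAs was 10972 and 10708 CPM (counts scaled by the library total) in RMT1 EVs and 130 and 163 in EVu and EVd. The summed level of miR-375-3p, miR-7a-5p and miR-9a-5p, 3 microRNAs of neuroendocrine and neural cells, was 1485 and 1576 CPM in RMT1 and 27053 and 24261 in EVu and EVd, with miR-375-3p and miR-9a-5p at 0 in both RMT1 libraries. EVu and EVd differed in a list of 6 blood and liver microRNAs, all 6 above 0 in EVu and 5 in EVd, whose summed level was 1449 CPM in EVu but only 85.7 in EVd; in RMT1 it was 62.6 and 57.2.

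A single RefSeq mature sequence (rat assembly GRCr8) matched 89 of the 105 names. The 4 pairs shown first each hold a late-numbered name and the well-known microRNA on the opposite strand: 3 of the most abundant such names of the PC12 table, and miR-3574, the name with the lowest ratio of EVd to EVu. Sequences run 5′ to 3′ and capitals mark the seed, bases 2 to 8.
miR-3596a: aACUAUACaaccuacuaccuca
let-7a-5p: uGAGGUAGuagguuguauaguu
miR-3587: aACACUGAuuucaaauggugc
miR-29b-3p: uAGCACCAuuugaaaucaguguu
miR-3588: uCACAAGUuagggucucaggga
miR-125b-5p: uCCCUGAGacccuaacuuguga
miR-3574: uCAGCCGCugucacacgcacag
miR-210-3p: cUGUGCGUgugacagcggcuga
In RefSeq's GRCr8, miR-3596a lies at chr8:50805219-50805240 on the minus strand and let-7a-5p at the same bases of the plus strand. miR-3587 lies at chr4:60618342-60618362 on the plus strand, opposite miR-29b-3p at chr4:60618342-60618364. miR-3588 lies at chr11:29732588-29732609 on the minus strand, opposite miR-125b-5p. miR-3574 lies at chr1:205755946-205755967 on the plus strand, opposite miR-210-3p. The complementary run was 22 bases for miR-3596a, miR-3588 and miR-3574 and 21 for miR-3587, so each of the 4 late-numbered names was complementary to its partner over its whole length. Their seeds all differ from those of their partners.

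A second set shows the names with no listed microRNA on the opposite strand that the comparisons turn on.
miR-3559-5p: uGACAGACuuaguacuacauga
miR-3099: uAGGCUAGaaagagguugggga
miR-3473: uCUAGGGCuggagagauggcua
miR-3583-5p: aGCAUGAAgaguucagaucacguu
miR-3583-3p: cCUGACUUcucucuucaugcag
miR-5132-5p: cGUGGGGCgguggacccaggcu
miR-5132-3p: cCUGAUGUuccccgucccgcagc
In GRCr8 miR-3559-5p lies at chrX:73660193-73660214 (minus strand), miR-3099 at chr1:76057109-76057130 (minus) and miR-3473 at chr13:42051730-42051751 (plus). The arms of miR-3583 lie at chr5:150036006-150036029 and chr5:150036047-150036068 (plus), and those of miR-5132 at chrX:156929468-156929489 and chrX:156929432-156929454 (minus). The deposited loci are of another, unnamed build and place miR-5132 on chromosome 1. Shared seeds were rare among the 89 names with a matched sequence. The seed of miR-3573-5p (11 counts in EVu and 8 in EVd) was also that of miR-423-5p. No other seed was shared among these 89 names or with the 30 most abundant microRNAs of a library. Seeds of the remaining names were not compared, among them miR-3084b-3p, which the PC12 table lists under a merged name with miR-3084a-3p.

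The first question was how far the late-numbered names were detected. In the table of all 4 libraries 30 of the 102 listed names, or 29.4%, had a count in any library, and 72 were at 0 in all 4. Lower numbers were detected more often, with 74.2% of names numbered under 300, 50.5% of those from 300 to below 1000 and 40.7% of those from 1000 to below 3000. Only 10 late-numbered names reached 10 counts in a library. A count was present in both RMT1 libraries for 10 names, in EVu or EVd for 26, in RMT1 alone for 4 and in PC12 alone for 16. Together the late-numbered names held 0.0279% ± 0.00094 (SD, n = 2) of RMT1 counts, 0.106% of EVu (95% exact Clopper-Pearson interval 0.0963% to 0.116%) and 0.0949% of EVd (0.0848% to 0.106%). The intervals of EVu and EVd overlap, and both RMT1 libraries, at 0.0285% and 0.0272%, lay below both. This was not particular to late numbers. Names under 300 held 28.2% and 28.6% of the RMT1 libraries against 68.7% of EVu and 62.5% of EVd. Those from 300 to below 1000 held 2.84% and 2.8% against 8.16% and 15.8%. Those from 1000 to below 3000 held 0.0179% and 0.019% against 0.0861% and 0.0846%. The let-7 names held 68.9% and 68.6% of the RMT1 libraries against 22.9% and 21.5%.

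The PC12 table gave a far larger share for the same EVu and EVd libraries. There the late-numbered names held 11083 counts or 2.16% of EVu (2.12% to 2.2%) and 8712 counts or 2.25% of EVd (2.2% to 2.3%). A group of 5 names, miR-3556b, miR-3596a, miR-3587, miR-3588 and miR-3596d, supplied 61.7% of the late-numbered counts in EVu and 57.4% in EVd. All 5 lie opposite a listed microRNA. Below them the counts were low: 29 of the 68 names had a highest count under 20, or 42.6%, against 25.4% of the 457 other microRNA names of that table. Since the authors listed no name whose highest count was under 10, the lowest-count names cannot be read as a measure of all late-numbered microRNAs.

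Many of the abundant names lay opposite another microRNA: 9 of the 18 names that averaged at least 100 counts did. By the loci of the PC12 table, whose build is not named, 20 of the 68 names overlapped a listed microRNA on the opposite strand and 0 overlapped one on the same strand. Among the 457 other names 30 had a listed opposite-strand neighbour, but that neighbour was itself numbered under 3000 for only 8. The 20 names held 75% of the late-numbered counts in EVu (8312 counts) and 66.2% in EVd (5770). Both sequences were available for 19 pairs, with complementary runs of 18 to 22 bases, and in 15 of them the whole late-numbered name was complementary to its partner. Nothing in either table records whether reads were counted by strand, and without strand the reads of a name and of its opposite-strand partner cannot be told apart.

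The 4 names miR-3596a to miR-3596d lie opposite let-7, a family known for holding back Lin28 and Hmga2 as cells mature. miR-3596a had 1629 counts in EVu and 940 in EVd, where let-7a-5p had 10224 and 7933. miR-3596d had 1159 and 753 counts, opposite let-7f-5p with 21530 and 18046. The remaining members of the series were lower: miR-3596c had 364 and 166 counts opposite let-7e-5p (5074 and 3661), and miR-3596b had 212 and 113 opposite let-7d-5p (1079 and 811). In EVu the 4 names thus stood at 15.9%, 5.38%, 7.17% and 19.6% of their partners, and each was at a lower percentage in EVd (11.8%, 4.17%, 4.53% and 13.9%). Their log2 ratios of EVd over EVu were -0.39 (95% counting interval -0.51 to -0.27), -0.22 (-0.35 to -0.08), -0.73 and -0.50 (-0.85 to -0.17), in the same order and all with intervals below 0, while the 4 let-7 partners lay between -0.07 and 0.15.

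Names opposite miR-29, a family known for repressing collagen genes, covered the widest range. miR-3556b had 1557 and 1089 counts opposite miR-29c-3p, which had 10032 and 9129. miR-3587 had 1235 and 1169 opposite miR-29b-3p, with 3488 and 4146. miR-3556a had only 103 and 50, although its partner miR-29a-3p was the most abundant of the 3 at 16378 and 17483. The late-numbered name therefore stood at 15.5%, 35.4% and 0.629% of its partner in EVu, and at 11.9%, 28.2% and 0.286% in EVd. miR-3588, opposite miR-125b-5p of neurons, had 1254 and 1054 counts against 16555 and 18217. miR-3553, opposite miR-183-5p of sensory cells, had 273 and 215 counts against 3832 and 3898.

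miR-210-3p, a microRNA of the hypoxia response, and its opposite-strand name were both lower in EVd than in EVu. miR-3574 had 138 counts in EVu and 12 in EVd, a log2 ratio of -3.08 (-4.11 to -2.27), and miR-210-3p had 861 and 196, a log2 ratio of -1.73 (-1.96 to -1.51). The same direction was seen for miR-3557-5p (67 and 21 counts, -1.25, -2.05 to -0.54) and its partner miR-378a-3p (542 and 162, -1.34, -1.60 to -1.08). It was seen too for miR-3590-5p (81 and 27, -1.17, -1.87 to -0.54) and miR-130a-3p (891 and 447, -0.59, -0.76 to -0.42). miR-3557-3p, the other arm of the miR-3557 hairpin, went the other way with 11 and 16 counts, while its partner miR-378a-5p had 111 and 46. Its log2 ratio of 0.91 had an interval across 0 (-0.25 to 2.20).

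A group of 7 opposite-strand names remained. miR-3065-5p, opposite miR-338-3p of nervous tissue (250 and 212), had 127 and 76. miR-3589, miR-3586-3p, miR-3570, miR-3560, miR-3074 and miR-3591 had between 3 and 32 counts per library. Their partners were miR-505-3p, miR-151-5p, miR-181a-1-3p, miR-501-3p, miR-24-1-5p and the liver microRNA miR-122-5p. miR-3589 (32 and 20 counts against 28 and 12) and miR-3074 (12 and 10 against 11 and 3) exceeded their partners in both libraries, and miR-3591 (11 and 14 against 50 and 10) did so in EVd. In all other pairs the late-numbered name was the lower one, 18 of 20 in EVu and 17 of 20 in EVd.

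**Figure D1:**
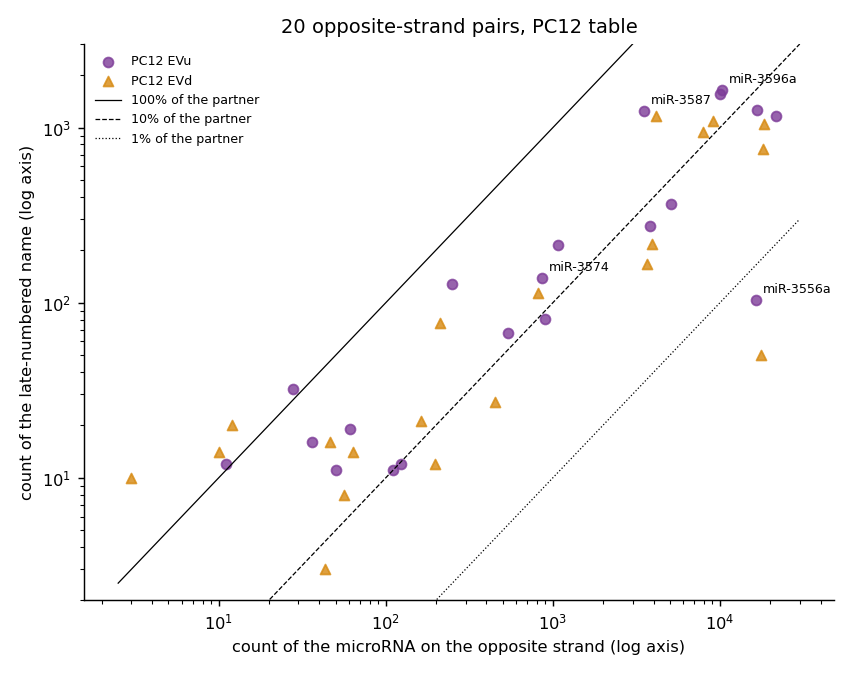
Counts of 20 late-numbered names (vertical, log axis) against counts of the microRNA on the opposite strand (horizontal, log axis) in the PC12 table, for EVu (circles) and EVd (triangles), with lines at 100%, 10% and 1% of the partner. Most points lie between 1% and 100% of the partner, with a median of 15.7% in EVu and 12.4% in EVd, and miR-3556a lies lowest.

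Across the 20 pairs the level of a name followed that of its partner. Pearson's r of the log2 counts was 0.89 in EVu and 0.844 in EVd, and Spearman's rho was 0.843 and 0.851, over pairs that share libraries and depth and, within let-7 and miR-29, much of their sequence. The change from EVu to EVd followed the partner less over all 20 pairs (r = 0.331, rho = 0.284). Over the 12 pairs whose late-numbered name averaged at least 50 counts r was 0.962 and rho 0.846, and without the 2 pairs whose partners lay farthest from the median these were 0.718 and 0.733 (n = 10). In all 12 of those pairs the late-numbered name had the lower log2 ratio of the 2, with a median of -0.36 against 0.16 for the partners. Over all 20 pairs it was lower in 15, with medians of -0.30 and 0.01, and the other 5 pairs went the other way. These values are descriptions of 1 library per group.

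In the table of all 4 libraries these names were nearly absent while their partners were not. Of the 20 names 19 were listed there, and 17 of those were at 0 in all 4 libraries. The partners of the 17 held 17.8% and 18.2% of the RMT1 libraries, 20% of EVu and 24.8% of EVd. let-7a-5p alone had 44561 and 40562 counts in RMT1, where the 0 of miR-3596a allows at most 0.00673% and 0.0074% of that level. In EVu, with let-7a-5p at 9698 counts, it allows 0.0309%, against the 15.9% of the PC12 table for the same library. The exceptions were miR-3065-5p, whose RMT1 libraries had 10 and 3 counts and whose EVu and EVd had 47 and 22, and miR-3074, with 2 counts in 1 RMT1 library. In RMT1, miR-3065-5p had counts where its partner miR-338-3p was at 0 in both libraries.

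The agreement of the tables was therefore examined for all late-numbered names listed in both. Of 65 names, 1 in EVu and 2 in EVd had counts within 20% of each other in the 2 tables, against 123 and 128 of 452 other names. The table of all 4 libraries had 45 of the 65 (69.2%) at 0 in EVu and 47 (72.3%) in EVd, against 29.2% and 33% of the other names. The late-numbered names at 0 held 84.9% and 85.3% of the late-numbered counts of the PC12 table, whereas the other names at 0 held 1.31% and 1.98% of theirs. The other names pool all lower numbers. Those from 1000 to below 3000 also fell, from 2851 counts in EVu and 3124 in EVd to 376 and 286. A fall between the tables was therefore not particular to late numbers. The opposite-strand partners differed little, with 17 of 20 within 20% in each library. No late-numbered name was higher by more than 20% in the table of all 4 libraries in either library.

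**Figure D2:**
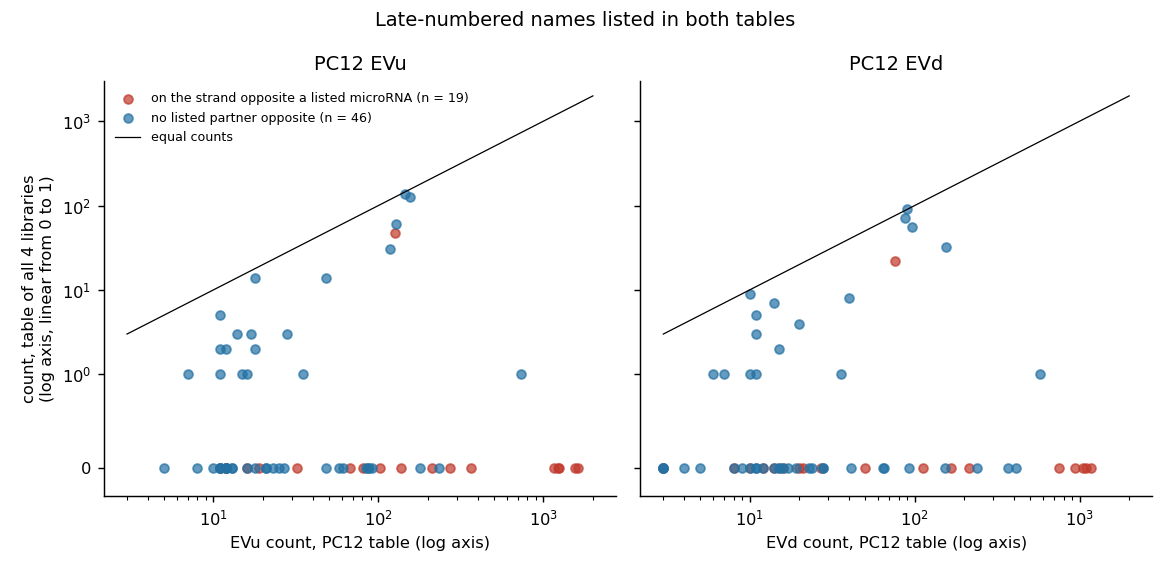
Counts of the 65 late-numbered names listed in both tables, with the PC12 table on the horizontal log axis and the table of all 4 libraries on the vertical axis (logarithmic above 1, linear from 0 to 1), for EVu (left) and EVd (right). All but 1 of the 19 opposite-strand names lie at 0 on the vertical axis in each panel, and miR-3559-5p and miR-3099 lie closest to the line of equal counts at the upper end.

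Position on an opposite strand did not mark all of the names that differed between tables. Of the 14 names with at least 100 counts in a library of the PC12 table and 0 in the other table for the same library, 10 were opposite-strand names and 4 were not. The 4 were miR-3542 (235 counts in EVu and 414 in EVd), miR-6316 (178 and 154), miR-5132-3p (88 and 371) and miR-3583-5p (84 and 240). miR-3583-3p had 734 and 578 counts in the PC12 table and 1 and 1 in the other. Among the 46 names without an opposite-strand partner listed in the PC12 table, 27 (58.7%) were at 0 in EVu and 29 (63%) in EVd. Those at 0 held 43.8% and 58.9% of the counts of the 46. The 46 include miR-3065-3p, miR-3546 and miR-3571, whose complementary partners are listed in the other table only. The tables agreed best for miR-3559-5p, with 146 and 90 counts in the PC12 table and 137 and 90 in the other. miR-3099 had 156 and 87 against 127 and 72, and miR-3068-5p 128 and 96 against 60 and 56.

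A further 8 late-numbered names were complementary by sequence to a listed microRNA without an overlapping locus listed in the PC12 table. miR-3571 was complementary over 21 bases to miR-1-3p, the muscle microRNA, and had 16 and 17 counts. miR-3546 was complementary to miR-208a-5p, from a hairpin of the heart, and had 13 and 11. miR-3065-3p, complementary to miR-338-5p, had 18 and 10 counts in the PC12 table and 14 and 9 in the other. The other 5 were miR-3548, miR-3549, miR-3575, miR-3590-3p and miR-6325. They were not listed in the PC12 table and were at 0 in all 4 libraries of the other, where miR-200a-5p, the partner of miR-3548, had 142 and 110 counts in RMT1.

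EVd was then compared with EVu on the PC12 table. With 1 library per group there is no test, and differences have no replicate check. Fewer vesicles of a kind and less RNA per vesicle cannot be told apart in these bulk preparations. Of the 58 late-numbered names averaging 10 counts or more, 5 lay 2-fold or more higher in EVd and 4 lay 2-fold or more lower, where ratios are of CPM with a pseudocount of 1 CPM. Among all 472 microRNA names tested, 13.8% were that much higher and 6.99% that much lower, so the late-numbered counts of 5 and 4 of 58 lay near the background. The median log2 ratio of the 58 was -0.01, beside 0.06 over all 472. The counting interval lay above 0 for 9 of the 58, below 0 for 10 and across 0 for 39. Over all 472 names it lay above 0 for 25% and below 0 for 19.7%. The summed blood and liver markers were far higher in EVu than in EVd, as given above, and their part in these differences was not tested.

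The 5 higher names had no listed opposite-strand partner. miR-5132-3p had 88 counts in EVu and 371 in EVd, a log2 ratio of 2.47 (2.14 to 2.83). miR-3583-5p had 84 and 240 counts, at 1.91 (1.56 to 2.30), and miR-3542 had 235 and 414, at 1.22 (0.99 to 1.46). miR-3558-5p, with 21 and 41 counts, was at 1.35 (0.58 to 2.20), and miR-3593-3p, with 16 and 28, at 1.19 (0.28 to 2.20). In the table of all 4 libraries 4 of these 5 were at 0 in both PC12 libraries and miR-3593-3p had 1 and 0 counts, so none of the higher values can be seen there. The lower names were miR-3574, miR-3557-5p and miR-3590-5p of the opposite-strand set, and miR-3561-5p with 18 and 3 counts (-2.05, -4.59 to -0.40). All 4 were at 0 in both PC12 libraries of the other table.

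**Figure D3:**
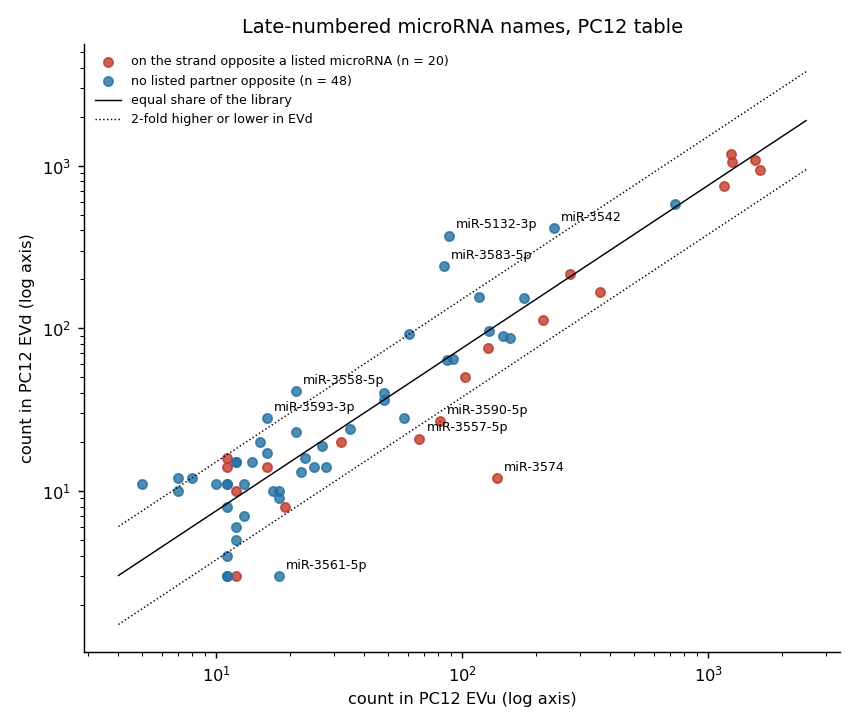
Counts of the 68 late-numbered names of the PC12 table in EVu (horizontal) and EVd (vertical), both on log axes. Colour shows whether a microRNA listed in the PC12 table lies on the opposite strand. The solid line marks equal shares, and dotted lines lie 2-fold above and below it. The 9 labelled names with a mean of at least 10 counts lie past the 2-fold lines, and 5 of the 6 most abundant names are opposite-strand names.

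Several of these differences concerned 1 arm of a hairpin. Both arms were listed in the PC12 table for 8 late-numbered hairpins. In 4 of them the share of the 3p arm had counting intervals that did not overlap between EVu and EVd, against 13.4% of all 149 hairpins with both arms listed there. The 149 were not matched to the 8 for depth, which sets the width of the intervals. For miR-3583 the hairpin total was 818 counts in each library, and the 3p arm made up 89.7% of it in EVu (87.4% to 91.7%) and 70.7% in EVd (67.4% to 73.8%). For miR-5132 the 3p arm made up 64.7% in EVu (56.1% to 72.7%) and 91.2% in EVd (88% to 93.7%), where miR-5132-5p had 48 and 36 counts while miR-5132-3p had 88 and 371. For miR-3068 the 3p arm made up 47.8% (41.4% to 54.2%) and 61.9% (55.6% to 67.9%), but 34.1% and 36.4% in the other table, where the intervals overlapped. For miR-3557, whose arms both lie opposite miR-378a, it made up 14.1% (7.26% to 23.8%) and 43.2% (27.1% to 60.5%). In EVu and EVd of the other table, both arms together had 1 and 1 counts for miR-3583 and 0 and 1 for miR-5132. Both arms of miR-3557 were at 0 there, so the shares of these hairpins could not be compared between tables. The hairpins miR-3065, miR-3559, miR-3561 and miR-3593 had overlapping intervals.

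**Figure D4:**
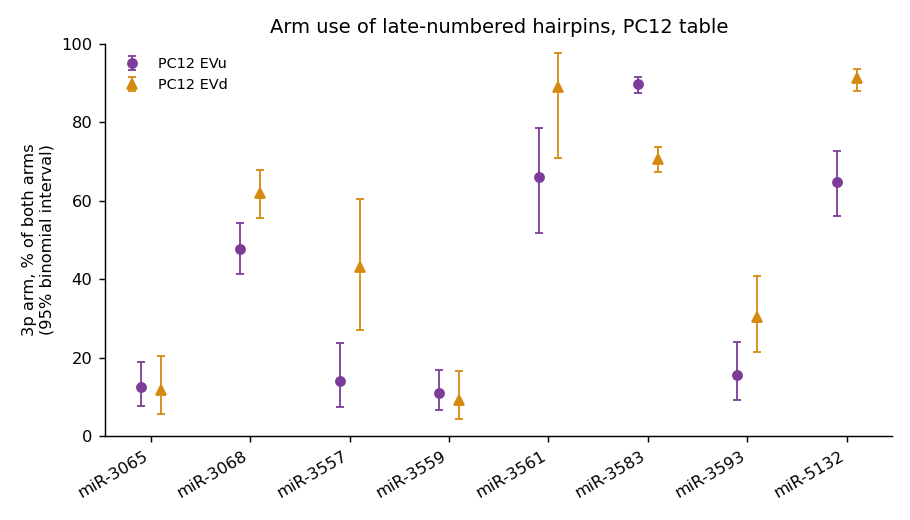
Share of the 3p arm among the counts of both arms, in percent, for the 8 late-numbered hairpins with both arms in the PC12 table, in EVu (circles) and EVd (triangles), with 95% exact binomial intervals that cover counting error only. miR-3583 has the lower 3p share in EVd (70.7% against 89.7%) and miR-5132 the higher (91.2% against 64.7%).

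Neighbouring microRNAs were compared in the same way. Among 51 names within 10 kb of a late-numbered name and averaging 10 counts or more, 3 were 2-fold or more higher in EVd and 5 lower, with a median log2 ratio of 0.15. Among the 19 tested microRNAs that overlap a late-numbered name, 1 was higher and 4 lower, with a median of 0.04, beside the 13.8% higher and 6.99% lower over all 472 names. miR-3560, with 12 and 3 counts and an interval across 0 (-4.06 to 0.29), averaged under 10 counts. It stood in a cluster on chromosome X where its neighbours miR-362-3p (-1.45), miR-500-3p (-1.20) and miR-532-5p were at least 2-fold lower. The neighbours miR-188-5p (-0.82), miR-362-5p (-0.90), miR-501-5p (-0.42) and miR-532-3p (-0.54) were within 2-fold. miR-532-5p, its most abundant neighbour, had 1834 counts in EVu and 631 in EVd, a log2 ratio of -1.13.

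RMT1 EVs were compared with PC12 EVs in the table of all 4 libraries by limma on the authors' log2 values, for names whose linear values averaged at least 10. Only 9 late-numbered names could be fitted among 278. Of these 4 were higher in RMT1 and 3 lower at an adjusted p of 0.05 (limma, Benjamini-Hochberg over all 278), and 8 had an unadjusted p under 0.05. Of the 7 called, 5 reached the minimum in 1 cell line only, the one where they were high, and so had to differ: the count of calls supports nothing about the late-numbered names, and no p is given for these 5. Across all 278 names 33.1% were called higher and 37.1% lower. The median log2 difference over all 278 was -1.12 in the authors' scaling and -2.54 when scaled by library totals. Differences of names that reached the minimum in both cell lines are therefore also given relative to the median. Folds of pooled shares by library totals are not adjusted for it. The spread comes from the RMT1 pair alone, with 1 degree of freedom, and is 0 for names at 0 in both RMT1 libraries.

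miR-3473, the most abundant late-numbered name in RMT1, had 88 and 101 counts in the RMT1 pair against 14 (EVu) and 8 (EVd). Both RMT1 libraries lay above both PC12 libraries, with a mean log2 value of 7.71 against 4.04. The log2 difference was 3.67 with a standard error of 0.30 (limma adjusted p = 0.0296), or 4.79 above the median of all names. By library totals the pooled share was 4.39-fold higher in RMT1 (95% counting interval 2.82 to 7.18). In the PC12 table, however, miR-3473 had 48 and 40 counts, or 93.7 and 103 CPM. Its RMT1 level was 110 and 141 CPM in a table normalized separately, so the size of this difference depends on the table.

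miR-3558 gave counts from both arms in RMT1 and none in the PC12 libraries of the same table. miR-3558-5p had 46 and 21 counts and miR-3558-3p 13 and 10, with differences of 6.11 and 4.66 in mean log2 value. Against a floor of 3 counts over the PC12 pair, the pooled shares were at least 11.4-fold and 3.92-fold higher in RMT1. The PC12 table, though, listed miR-3558-5p with 21 and 41 counts, or 41 and 106 CPM, against 57.6 and 29.3 CPM in RMT1, so these ranges overlapped across tables. miR-3075 had 35 and 30 counts in RMT1 and 2 and 1 in EVu and EVd, a log2 difference of 5.03. Its pooled share was 11.1-fold higher (3.63 to 55.1), and the PC12 table gave 12 and 6 counts, or 23.4 and 15.5 CPM, below the 43.8 and 41.8 CPM of RMT1.

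Among the names lower in RMT1, miR-3559-5p was at 0 in both RMT1 libraries and had 137 and 90 counts in EVu and EVd, where the PC12 table gave nearly the same counts. Its pooled share was at least 148-fold lower in RMT1, against a floor of 3 counts over the pair (log2 difference -7.43). miR-3068-3p was at 0 in both RMT1 libraries and had 31 and 32 counts in PC12, at least 41.1-fold lower in RMT1 (log2 difference -5.61). The PC12 table gave miR-3068-3p 117 counts in EVu and 156 in EVd, so its PC12 level depends on the table. The other arm of that hairpin, miR-3068-5p, had 10 and 8 counts in RMT1 and 60 and 56 in PC12. Its log2 difference was -2.18 with a standard error of 0.07 (limma adjusted p = 0.0121), and relative to the median of all names it was -1.06. Its RMT1 log2 values were 4.31 and 4.31, so the small standard error and p rest on that match at low counts. They do not show miR-3068-5p to be more firmly different than miR-3099, which was not called. By library totals the pooled PC12 share of miR-3068-5p was 12.6-fold that of RMT1 (counting interval 7.63 to 22).

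The remaining fitted names did not pass the threshold by limma. miR-3099 had 10 and 13 counts in RMT1 against 127 and 72, without overlap between the cell lines, and a log2 difference of -2.55 (SE 0.40, limma adjusted p = 0.0593). miR-3065-5p had 10 and 3 counts against 47 and 22, at -2.04 (SE 0.81, limma adjusted p = 0.179). Relative to the median of all names, miR-3099 and miR-3065-5p were at -1.44 and -0.92, and with library totals at -1.41 and -0.80. By library totals the pooled PC12 share was 16.9-fold that of RMT1 for miR-3099 (11 to 27.3) and 10.4-fold for miR-3065-5p (5.69 to 20.5). The value of miR-3065-5p depended on the RMT1 library: it was -2.74 and 21.3-fold without RMT1 replicate 1, and -1.33 and 7.12-fold without replicate 2.

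**Figure D5:**
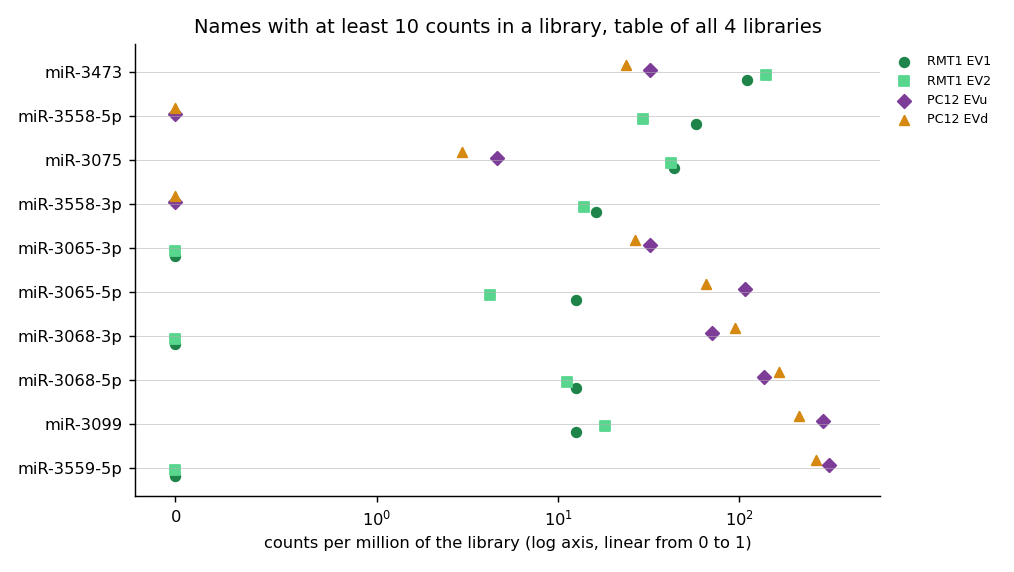
Level of the 10 late-numbered names with at least 10 counts in a library of the table of all 4 libraries, in CPM (log axis, linear from 0 to 1), 1 symbol per library. miR-3473, miR-3558 and miR-3075 are higher in both RMT1 libraries, and the other names are higher in EVu and EVd, with miR-3559-5p at 0 in RMT1 and at 314 and 266 CPM in EVu and EVd.

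The other names were low. Among those with counts in both RMT1 libraries, miR-3064-5p had 5 and 5 counts, miR-3102 3 and 1, and miR-5132-5p 3 and 1. The PC12 table alone listed miR-3591, miR-3084c-3p and a merged name for miR-3084a-3p, miR-3084b-3p and miR-3084d. The 61 late-numbered names that were neither abundant, 2-fold different, called, complementary to a listed microRNA nor sharing a seed had 5 to 92 counts in EVu and 3 to 92 in EVd where the PC12 table listed them (30 names). In the table of all 4 libraries 59 of them were listed, 42 at 0 in every library, and none exceeded 7 counts.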

How the data were processed

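Small RNA was counted in 4 EV libraries. Per the file headers, the PC12 table holds raw counts for 528 microRNA and 66 piRNA names, the latter 3.3% of EVu and 2.79% of EVd. The second table holds log2 values that the authors normalized jointly over 4 libraries. Its linear values were divided by their smallest step to recover counts, 100% of which lay within 0.1 of a whole number. The submitters' processing notes name mm10, a mouse build. The aligner, counting program, strand setting and locus build were not given in the sources used here. No header says whether counts are reads or unique molecules.

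Names numbered 3000 or above were kept unless within 500 kb of miR-127-3p, by deposited locus (3 dropped) or RefSeq neighbours (5 dropped). Members and lists were chosen with earlier results of these data known. EVd over EVu was the log2 ratio of CPM (pseudocount 1 CPM) of names averaging at least 10 counts, with exact binomial intervals for counting error only. RMT1 was compared with the mean of EVu and EVd by limma 3.58.1 with trend on the log2 values, tested on simulated data. edgeR 4.0.16 and DESeq2 1.42.0 (R 4.3.3) on recovered counts were alternatives. Names were given by value if they averaged at least 100 counts, differed 2-fold, were called by limma, lay opposite or complementary to a listed microRNA, had at least 100 counts in 1 table and 0 in the other, or shared a seed. Sequences are RefSeq's (GRCr8). Python 3.11.15, SciPy 1.17.1 and matplotlib 3.10.9 were used.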

Additional observations from a re-analysis of the deposited data

How the results depend on the processing

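The number of late-numbered names at least 2-fold different between EVd and EVu, 9 of 58, was 0 of 7 in the table of all 4 libraries, 14 of 68 with no minimum count and 5 of 24 with a mean of at least 50, beside 23.6%, 23.5% and 22.1% of all names. It was 9 with a pseudocount of 5 CPM, with the authors' normalized values and with totals of microRNA alone. Over all 472 names, 57 were higher and 30 lower with that pseudocount, 65 and 35 with the normalized values and 64 and 33 with microRNA totals. Without the opposite-strand names, an alternative chosen after seeing the data, 6 of 39 remained past the fold. Of these 5 were higher and 1 lower, beside 13.8% higher and 6.99% lower over all 472 names in the main setting. For miR-3593-3p the log2 ratio turned from 1.19 to -1.72 in the table of all 4 libraries, on 1 and 0 counts. The number called between RMT1 and PC12 EVs, 7 of 9, was 21 of 30 with no minimum and 4 of 4 with a linear mean of at least 50. It was 8 with library totals, 9 with edgeR, 8 with DESeq2 and 7 without the trend. Over all names, 88 were called higher and 192 lower of 440 with no minimum, and 81 and 82 of 205 with the higher minimum. Of all 278 names, 64 were higher and 145 lower with library totals, 100 and 145 with edgeR, and 88 and 116 with DESeq2. Without the trend these were 91 and 98. Calls were thus common among all names, and these counts support nothing particular to the late-numbered names. Of the 9 names fitted by limma, the 5 that reached the minimum in 1 cell line only had their sign set by that selection. miR-3473, miR-3068-5p, miR-3099 and miR-3065-5p reached it in both, and each kept its sign in these fits and when either RMT1 library was left out. Leaving out a library leaves no residual degrees of freedom, so no count of calls can be given. miR-3099, not called by limma in the authors' scaling, was called with library totals, edgeR, DESeq2 and the higher minimum. miR-3065-5p was called with edgeR alone (edgeR adjusted p = 0.0102). Late-numbered names within 50% in both tables and libraries numbered 3 of 65, beside 158 of 452 other names. Within 20% they numbered 1 of 65, beside 110 of 452. With the PC12 table the late-numbered share was 2.16% of EVu and 2.25% of EVd in place of 0.106% and 0.0949%, and 0.541% and 0.76% without the opposite-strand names. Depth limits the names at 0, and most of the RMT1 comparison rests on fewer than 100 counts a library. No paired analysis was possible because EVu and EVd have 1 library each.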
